A study of Mus musculus with 6 samples.

Results

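The genes described here code for collagens, laminins and integrins, the proteins of the extracellular matrix and the receptors that hold cells to it. They were chosen by symbol: every mouse gene that starts with Col, a number, a and a number, with Lama, Lamb or Lamc and a number, or with Itga or Itgb. That rule gave 84 genes of the 25696 listed in any table, and 79 of the 84 were in every table. Of these, 43 are collagen genes, 10 are laminin genes and 26 are integrin genes. The other 5 (Col4a3bp, Itgb1bp1, Itgb1bp2, Itgb3bp and Itgbl1) fit the pattern by name, although they code for no collagen, laminin or integrin chain. They are kept as the rule has them and named as such.

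Nuclei came from C57BL/6J mice aged 8 to 12 weeks, and all 6 deposited samples are labelled mouse cortex. The starting material was 50 µm scrolls of formalin-fixed, paraffin-embedded (FFPE) brain, freed of paraffin by mineral oil with heat (oil below), by xylene with heat (hot xylene) or by xylene without heat (unheated xylene), then passed through ethanol, lysed and sorted. Bulk wells of sorted nuclei were read by SCRB-seq (a 3'-end method; 16 wells per treatment, 8 of 10 nuclei and 8 of 100) and by SMART-Seq2 (a method that reads whole transcripts; 3 wells per treatment, of 10, 50 and 100 nuclei). Frozen wells of the same design stood in both tables, and single nuclei were read in plates (143 FFPE, 137 frozen) and in droplets (7031 FFPE). The frozen wells and nuclei are known from the authors' annotation tables alone, which give no treatment beyond frozen. No label ties a well to an animal, so p-values measure the spread between wells, which may be technical. In SCRB-seq each treatment and nuclei number also formed 1 index pool, and pool and group cannot be told apart.

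Collagens are triple helices of 3 chains. The fibrillar types I and III form the fibres of the meninges and of the tissue around large vessels, type IV forms the network of basement membranes under brain endothelium and astrocyte endfeet, and type VI forms beaded filaments beside it. Laminins are trimers of an alpha, a beta and a gamma chain that assemble in the same basement membranes. Integrins are pairs of an alpha and a beta chain in the cell membrane: most pairs with Itgb1 bind collagen, laminin or fibronectin, while Itgav pairs with Itgb5 and Itgb8, among others, to bind vitronectin or latent TGF-beta. All measurements below are of RNA in nuclei.

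The type IV genes Col4a1 and Col4a2 lie head to head and their promoters are 1 stretch of DNA. They are shown for that shared stretch and because both were found in some of the same frozen nuclei, as other pairs were (below). Col6a3 is shown because it differed most between FFPE and frozen SCRB-seq wells. Col1a2 is shown because it led the droplet class annotated as fibroblast. The sequences are RefSeq windows on GRCm38.p6, from 250 bases before the start site to 50 after it, given 5' to 3' on the strand of the gene. Capitals mark CCAAT or its reverse complement ATTGG (the CCAAT box) and GGGCGG or its reverse complement CCGCCC (the GC box). TATAAA, searched on both strands too, was in none of the 4.
Col4a1: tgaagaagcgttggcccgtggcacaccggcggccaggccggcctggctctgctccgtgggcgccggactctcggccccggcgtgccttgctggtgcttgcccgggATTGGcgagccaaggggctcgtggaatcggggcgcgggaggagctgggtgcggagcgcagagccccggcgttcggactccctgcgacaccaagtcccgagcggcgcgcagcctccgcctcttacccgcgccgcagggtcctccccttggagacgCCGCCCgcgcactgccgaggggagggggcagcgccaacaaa
Col4a2: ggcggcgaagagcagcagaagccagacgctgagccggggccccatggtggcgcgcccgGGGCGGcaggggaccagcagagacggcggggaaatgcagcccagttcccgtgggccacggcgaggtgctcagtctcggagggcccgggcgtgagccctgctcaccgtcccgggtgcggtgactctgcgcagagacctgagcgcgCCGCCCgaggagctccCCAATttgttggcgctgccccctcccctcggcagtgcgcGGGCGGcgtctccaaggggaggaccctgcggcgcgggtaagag
Col6a3: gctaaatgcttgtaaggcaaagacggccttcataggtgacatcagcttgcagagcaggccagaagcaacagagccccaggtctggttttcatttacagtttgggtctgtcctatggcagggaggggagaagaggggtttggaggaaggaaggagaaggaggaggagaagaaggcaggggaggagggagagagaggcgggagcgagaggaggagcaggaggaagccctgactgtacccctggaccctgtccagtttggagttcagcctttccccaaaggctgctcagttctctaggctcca
Col1a2: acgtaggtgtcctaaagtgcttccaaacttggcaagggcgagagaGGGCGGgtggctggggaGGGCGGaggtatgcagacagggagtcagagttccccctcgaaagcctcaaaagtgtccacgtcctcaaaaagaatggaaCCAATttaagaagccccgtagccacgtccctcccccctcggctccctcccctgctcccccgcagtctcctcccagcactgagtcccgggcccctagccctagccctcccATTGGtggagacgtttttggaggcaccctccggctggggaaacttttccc
The Col4a1 window is chr8:11312777-11313076 on the minus strand and the Col4a2 window chr8:11312555-11312854 on the plus strand. The start sites are 21 bases apart and the windows share 78 bases. The GC content was 74.0% for Col4a1 and 73.7% for Col4a2, against a median of 52.7% over all windows. The Col6a3 window (chr1:90843922-90844221, minus strand, 56.3% GC) held none of the motifs, and the Col1a2 window (chr6:4505368-4505667, plus strand, 61.0% GC) held 2 CCAAT boxes and 2 GC boxes. Over the 65 windows of the 59 members with one, GC boxes were in 35 (53.8%), against 35.7% of the 32851 windows of all genes. CCAAT boxes were in 18 (27.7%), against 37.4%, and TATAAA in 4 (6.15%), against 13.6%. These matches describe the letters in the windows.

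The bulk wells were shallow. SCRB-seq wells held 7512 to 167144 mouse counts, with a median of 26386 in oil wells and 58643 to 67426 in the other groups, and SMART-Seq2 wells held 270363 to 942966. In SCRB-seq all 80 listed members had counts, yet 5 (all of them collagens: Col6a3, Col14a1, Col26a1, Col19a1 and Col4a5) passed the filter on low counts in the fit of FFPE and frozen wells. In SMART-Seq2 77 of 82 had counts and 29 passed. The markers of the groups also differed. The 4 cerebellar granule neuron markers (Gabra6, Cbln3, Cbln1, Zic1) summed to 239 to 5121 CPM (counts scaled to a well total of 1000000) in FFPE SCRB-seq wells and to 0 to 33.9 in frozen wells, where Gabra6 and Cbln3 were at 0. In SMART-Seq2 they summed to 386 to 2054 CPM in FFPE wells, and all 4 were at 0 in frozen wells. The 5 oligodendrocyte markers summed to 745 to 2505 CPM in FFPE and 67.3 to 343 in frozen SMART-Seq2 wells, and the 3 inhibitory neuron markers to 0 to 1256 CPM in FFPE and 0 to 124 in frozen SCRB-seq wells. The fibroblast markers (7 of 9 measured) summed to 0 to 1269 CPM (median 120) in FFPE and 0 to 212 (median 70.5) in frozen SCRB-seq wells, with Igf2 at 0 in the latter. FFPE and frozen wells thus differed in cell type markers as well as in fixation, and the part of these markers in the results was not tested. Fewer cells of a type and less RNA per cell cannot be told apart in bulk wells.

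In SCRB-seq, the beaded filament collagen Col6a3 and the fibril-associated collagen Col14a1 were higher in FFPE than in frozen wells, and Col26a1, a short collagen first found in gonads, was lower. Col6a3 stood at 1143 ± 1278 CPM in oil wells (SD, n = 16; lowest 60.2, median 537, highest 4366). In hot xylene wells it stood at 504 ± 421 CPM (SD, n = 16; 63.4, 327 and 1466) and in unheated xylene wells at 568 ± 761 (SD, n = 16; 31.2, 266 and 2870). Frozen wells held 36.2 ± 29.2 CPM (SD, n = 16; 0, 27.1 and 114). The groups overlapped at their edges, and 47 of 48 FFPE wells lay above the frozen mean. The difference was 4.41 on the log2 scale (SE 0.57, adjusted p = 2.89e-10, quasi-likelihood test of edgeR, Benjamini-Hochberg adjusted over all 1478 genes tested). Col6a3 lies at chr1:90765923-90843971 on mm10. Its level varied more between FFPE wells than that of any other tested member, and wells of 10 nuclei held more than wells of 100: means of 1871 against 415 CPM in oil, 677 against 330 in hot xylene and 942 against 195 in unheated xylene. Frozen wells had the same order at lower levels, with 52.4 against 20.1 CPM. Human genes, also listed in the SCRB-seq table, held 11.8% of all counts in FFPE and 2.08% in frozen wells, and their part in the Col6a3 difference was not tested.

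Col14a1 (chr15:55307750-55520803, mm10) was steadier. It stood at 413 ± 166 CPM in oil wells (SD, n = 16; lowest 182, median 391, highest 731), 363 ± 174 in hot xylene wells (SD, n = 16; 124, 342 and 731) and 243 ± 122 in unheated xylene wells (SD, n = 16; 92.0, 214 and 478). Frozen wells held 82.1 ± 39.8 CPM (SD, n = 16; 29.6, 85.7 and 182). All 48 FFPE wells lay above the frozen mean, and the difference was 1.97 on the log2 scale (SE 0.27, edgeR adjusted p = 3.27e-09). FFPE wells of 10 nuclei again held more than wells of 100: means of 506 against 319 CPM in oil, 471 against 255 in hot xylene and 321 against 165 in unheated xylene. Frozen wells were alike, at 82.4 and 81.7 CPM. The log2 difference was 2.29 in wells of 10 nuclei alone and 1.47 in wells of 100. The gene overlaps 3 annotated genes on the opposite strand, and the sources used here do not say whether counting used strand.

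Col26a1 (chr5:136741759-136883209, mm10) went the other way with no overlap. Its FFPE means were 37.0 ± 35.1 CPM in oil (SD, n = 16; lowest 0, median 43.1, highest 102), 53.1 ± 30.3 in hot xylene (SD, n = 16; 12.1, 54.2 and 134) and 62.1 ± 36.9 in unheated xylene (SD, n = 16; 0, 61.4 and 117). The frozen wells held 346 ± 107 CPM (SD, n = 16; 170, 353 and 585), so the lowest frozen well exceeded the highest FFPE well. The difference was -2.67 on the log2 scale (SE 0.24, edgeR adjusted p = 1.21e-15).

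**Figure D1:**
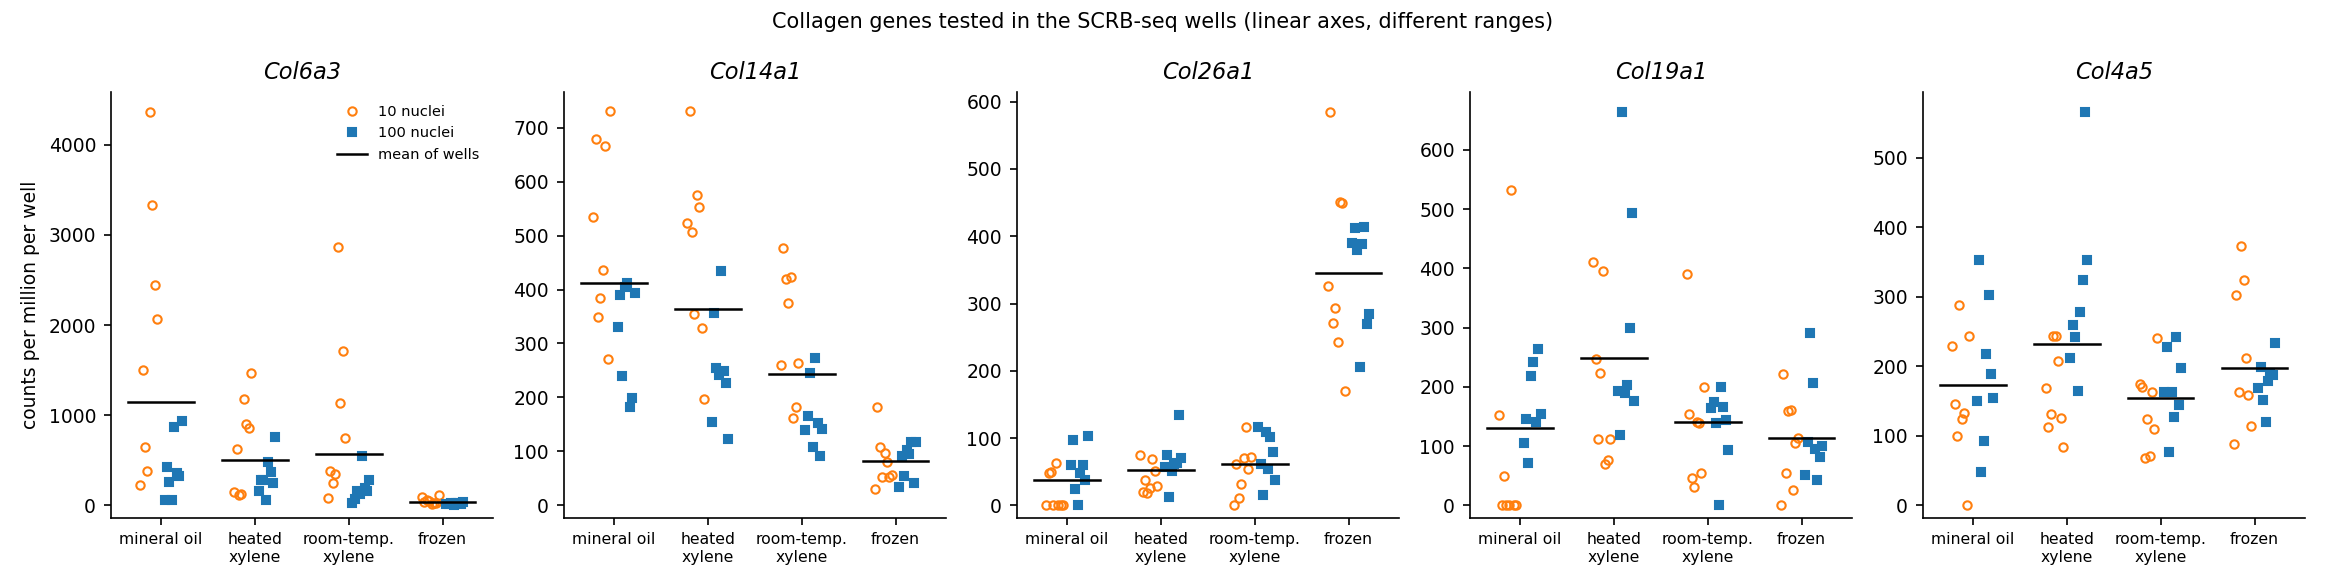
CPM of the 5 tested collagen genes in each SCRB-seq well, by treatment; open circles are wells of 10 nuclei, filled squares wells of 100, and black lines the means of 16 wells. Col6a3 and Col14a1 sit higher in the 3 FFPE treatments than in frozen wells, the frozen wells of Col26a1 (170 to 585) lie above every FFPE well, and Col19a1 and Col4a5 overlap throughout.

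The other tested members did not pass the threshold. Col19a1, a fibril-associated collagen made by some neurons, stood at 173 ± 144 CPM over FFPE wells (SD, n = 48) and 114 ± 77.7 in frozen wells (SD, n = 16; log2 difference 0.47, SE 0.33, edgeR adjusted p = 0.222). Col4a5, a type IV chain of basement membranes, stood at 186 ± 96.9 and 198 ± 77.5 CPM (log2 difference -0.13, SE 0.22, edgeR adjusted p = 0.898). So 3 of 5 tested members were called, against 58.0% of all 1478 genes: 30.2% higher in FFPE wells and 27.7% lower. A share of 3 in 5 is near that background. The split over all genes depends on scaling. With DESeq2's size factors in edgeR, 309 genes were higher and 674 lower, in place of 447 and 410, and the median log2 difference of all genes moved from 0.00 to -0.58. With those factors the 3 calls kept their direction (Col6a3 3.71, Col14a1 1.32, Col26a1 -3.23). Col4a5 was called lower at a value close to the median of all genes (-0.70, edgeR adjusted p = 0.00573, within a range of 0.00534 to 0.9998 over its 5 alternatives).

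By family, the collagens as a sum stood at 2440 ± 1321 CPM in oil, 2320 ± 505 in hot xylene, 1957 ± 901 in unheated xylene and 1345 ± 178 in frozen wells (SD, n = 16 each). Col6a3 alone held 1548 of the FFPE collagen counts and 30 of the frozen ones. Laminins stood at 163 ± 122, 118 ± 54.3 and 146 ± 79.5 CPM in the FFPE treatments and 316 ± 128 in frozen wells, in the same order and with n = 16. Lama1, the alpha chain of meningeal and early basement membranes, made up much of that sum, with 132 counts over the FFPE wells and 159 over the frozen ones, and did not pass the filter. Integrins stood at 574 ± 235, 720 ± 259 and 551 ± 201 CPM in the FFPE treatments and 555 ± 207 in frozen wells, so their groups overlapped throughout.

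Of the matrix partner list (28 genes of basement membranes, brain matrix and collagen processing were looked for), 5 were tested in SCRB-seq and 3 were called, beside the 58.0% called over all 1478 genes. Sparc, a collagen-binding glycoprotein, was higher in FFPE wells by 2.32 (SE 0.55, edgeR adjusted p = 0.000217), and Bmp1, the protease that trims procollagens, by 1.47 (SE 0.30, adjusted p = 1.51e-05), while Tnr (tenascin-R of perineuronal nets) was lower by -0.67 (SE 0.28, adjusted p = 0.0328). Of the integrin adhesion list (17 genes of the complex inside the cell), 3 were tested and 2 were called, near the same background, both lower: Ptk2 (focal adhesion kinase) by -1.83 (SE 0.29, edgeR adjusted p = 8.75e-08) and Ptk2b by -0.83 (SE 0.36, adjusted p = 0.0410). These 5 genes were named after their values were seen. Their list medians were 0.50 and -0.83 on the log2 scale, beside 0.00 over all genes.

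Between paraffin removal methods, no member was called in SCRB-seq by the design without nuclei number. With nuclei number as a covariate Col14a1 was higher in oil than in unheated xylene by 0.70 (edgeR adjusted p = 0.0277), and in wells of 100 nuclei alone by 1.01 (adjusted p = 0.0427). Of the 4 tested (Col14a1, Col19a1, Col4a5, Col6a3), 0 passed in the 3 comparisons, against 8.52% of 1080 genes between oil and hot xylene, 1.94% between hot and unheated xylene and 10.3% between oil and unheated xylene. At an unadjusted p under 0.05 in edgeR, 1, 2 and 0 members passed, beside 257, 176 and 249 of all 1080 genes, and 2, 2 and 1 in DESeq2, beside 257, 169 and 284. DESeq2 also called 0 members. Without the filter on low counts 12, 14 and 9 of 80 members were called in the 3 comparisons, beside 3415, 2899 and 2925 of 18205 genes. Col19a1 had the lowest p: 130 ± 141 CPM in oil, 249 ± 166 in hot xylene and 140 ± 90.4 in unheated xylene (SD, n = 16 each), a log2 difference of -0.98 for oil minus hot xylene (SE 0.41, edgeR adjusted p = 0.128). For Col6a3, intervals of about 2 SE around the difference reach beyond 1 on the log2 scale in all 3 comparisons, so a difference of that size was not detectable for that gene. Members that did not pass the filter could still look uneven. Itgav, the alpha chain shared by the vitronectin and TGF-beta binding integrins, stood at 14.3 ± 20.4 CPM in oil wells, 138 ± 73.2 in hot xylene and 127 ± 76.4 in unheated xylene (SD, n = 16 each), beside 98.2 ± 57.5 in frozen wells. In the wells of 100 nuclei alone, where it could be tested, it was lower in oil by -2.69 against hot xylene (edgeR adjusted p = 0.000720) and by -2.56 against unheated xylene (adjusted p = 0.00166). Col4a2, also sparse, had its highest mean of the 3 methods in hot xylene, with an SD above that mean: 6.0 ± 24.0 CPM in oil, 128 ± 153 in hot xylene and 7.5 ± 13.1 in unheated xylene (SD, n = 16 each). Partner genes called were Bcan (1 of 4 tested, lower in oil than in hot xylene), Sparcl1 (1 of 4, higher in hot than in unheated xylene), and Sparcl1 and Bmp1 (2 of 4, higher in oil than in unheated xylene).

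The remaining well-counted members of the SCRB-seq table were Itga9 (75.4 ± 70.9 CPM over FFPE wells and 109 ± 65.5 in frozen wells), Itgb1 (116 ± 148 and 103 ± 68.7) and Col18a1 (68.8 ± 49.9 and 40.3 ± 30.8; SD, n = 48 and n = 16 in each case). Itgb1 is the common beta chain of collagen and laminin receptors, and Col18a1 is a basement membrane collagen whose end fragment is endostatin. By summed counts Col6a3, Col14a1 and Col4a5 led, with 390, 249 and 203 CPM over FFPE and frozen wells together. These values are not divided by exon length, since SCRB-seq reads 3' ends. Frozen wells alone had another order, with Col6a3 below the other 2. The chains of the fibrillar types I and III had few counts: Col1a1 had 14 counts over FFPE wells and 5 over frozen ones, Col1a2 had 5 and 1, and Col3a1 had 2 and 0.

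SMART-Seq2 gave another set of leading members. By counts they were Col19a1, Itgav, Col4a3bp (the ceramide transporter, which matches by symbol only), Itgbl1 (an integrin beta-like secreted protein), Itgb5, Col6a1, Itgb8, Itgb1, Lamc1 and Itga1. Per kilobase of exon, over FFPE and frozen wells together, the highest levels were those of Itgb5 (21.8 CPM per kb), Itgbl1 (19.5) and Col19a1 (15.5). The Itgb5 level came mostly from the oil and hot xylene wells (below). Col6a3, first by counts in SCRB-seq, had 6 counts over the 9 FFPE wells and 0 over the frozen wells, and Col14a1 had 60 and 2. By summed counts over all wells Col6a3 stood at 390 CPM in SCRB-seq and 0.824 in SMART-Seq2, and Col14a1 at 249 and 8.52. The high SCRB-seq levels of these 2 genes were thus not seen in SMART-Seq2, and the cause was not tested. Whether both assays used the same tissue blocks is not stated in the labels.

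In the SMART-Seq2 comparison of FFPE with frozen wells, Col26a1 and the integrin chains Itga5 and Itga8 were lower in FFPE wells. Col26a1 held 51.4, 92.5 and 101 CPM in the frozen wells of 100, 50 and 10 nuclei. Among the 9 FFPE wells it was at 0 in 7, at 1.44 CPM in the hot xylene well of 100 nuclei and at 18.3 in the unheated xylene well of 100 nuclei. The groups did not overlap, and the fitted difference was -6.68 on the log2 scale (SE 1.39, edgeR adjusted p = 0.00548). With most FFPE wells at 0, this value depends on the prior count and is no bound. Col26a1 was the 1 member called in both bulk assays, in the same direction, and remained called without any 1 of the 12 wells (largest adjusted p = 0.0490).

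Itga5, the alpha chain of the main fibronectin receptor (chr15:103344286-103366763, mm10), held 19.3, 40.7 and 28.1 CPM in the frozen wells of 100, 50 and 10 nuclei. It was at 2.88 in the hot xylene well of 100 nuclei, at 8.82 in the unheated xylene well of 50, and at 0 in the other 7 FFPE wells. The groups did not overlap (log2 difference -5.25, SE 1.46, edgeR adjusted p = 0.0439). Itga8, an alpha chain that pairs with Itgb1 to bind nephronectin (chr2:12106632-12301922, mm10), held 70.7, 115 and 81.9 CPM in the frozen wells. Its FFPE wells were at 71.3 in unheated xylene with 100 nuclei, at 4.73 and 4.32 in 2 others and at 0 in the remaining 6, so the groups overlapped at 1 well (log2 difference -4.78, SE 1.35, edgeR adjusted p = 0.0436). An antisense gene overlaps Itga8. The calls of Itga5 and Itga8 were close to the threshold. Itga5 stayed called in 1 of the 12 fits that leave out 1 well (the unheated xylene well of 50 nuclei), with adjusted p up to 0.217, and was not tested in another, without the frozen well of 10 nuclei. Itga8 stayed called in 4 of 12 and was lost without any 1 of the frozen wells (adjusted p 0.152 to 0.217). DESeq2 called Itga8 and not Itga5 (adjusted p = 0.102).

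**Figure D2:**
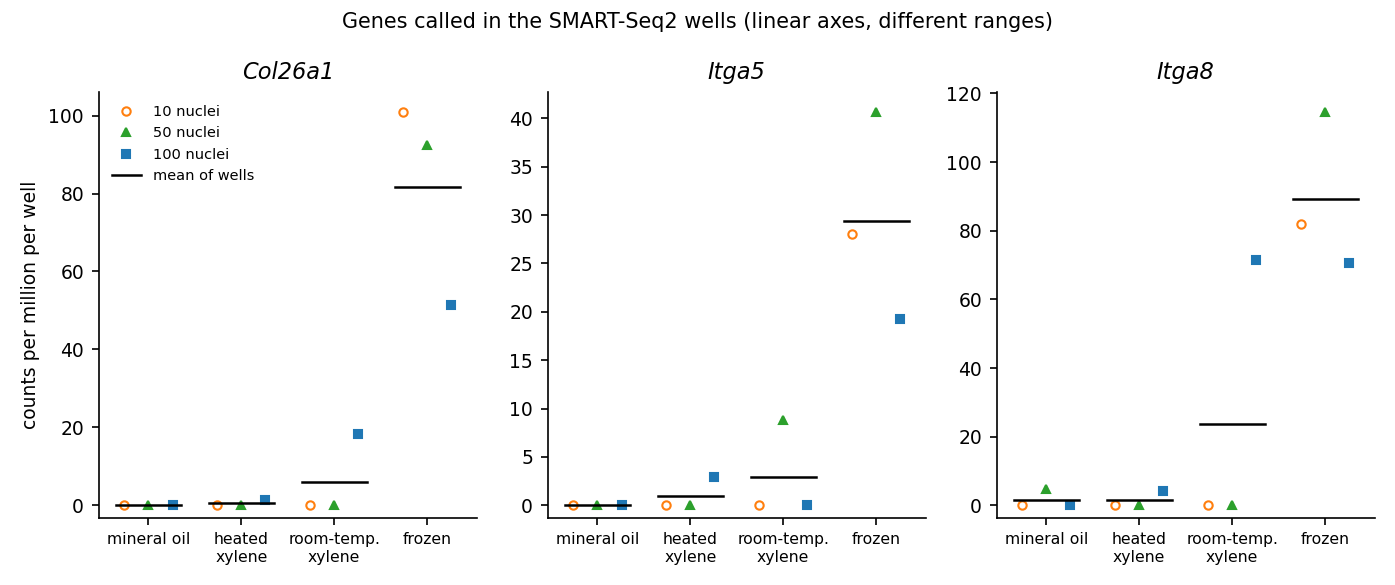
CPM of Col26a1, Itga5 and Itga8 in each SMART-Seq2 well, by treatment, with 3 wells per treatment of 10 (circles), 50 (triangles) and 100 nuclei (squares) and black lines at their means. Frozen wells hold 51.4 to 101 for Col26a1, and most FFPE wells sit at or near 0, apart from unheated xylene wells at 71.3 for Itga8, 18.3 for Col26a1 and 8.82 for Itga5.

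These were 3 of 29 tested members, against 4.09% of 9092 genes. All 3 were lower, as were 2.64% of all genes, while 1.45% were higher. The filter keeps a gene with counts in as few as 3 wells, so a member can pass through the frozen wells alone, and the 29 are not a sample of the 82. The median log2 difference was -1.25 over the 29 and -0.13 over all genes tested. Some members did not pass the threshold at a large fitted value, and with nuclei number as a covariate Lama4 (-6.99, edgeR adjusted p = 0.0154) and Col5a1 (-5.29, adjusted p = 0.0491) were called lower. Lama4, the alpha chain of vascular basement membranes, held 34.3, 55.5 and 68.5 CPM in frozen wells and was at 0 in 6 of 9 FFPE wells (log2 difference -4.13, SE 1.42, edgeR adjusted p = 0.120). Col5a1, a fibrillar chain that nucleates type I fibrils, held 33.3 to 40.7 CPM in frozen wells and 0 to 43.5 in FFPE wells (-4.90, adjusted p = 0.0595). Col6a1 stood at 43.8 ± 65.1 CPM in FFPE and 108 ± 28.3 in frozen wells (SD, n = 9 and n = 3; -2.82, edgeR adjusted p = 0.114), and Lamc1, the gamma chain of most laminins, at 34.7 ± 33.7 and 68.1 ± 28.6 (-1.51, edgeR adjusted p = 0.562). These 4 were named as examples, and no theme was tested. The 6 endothelial markers summed to 3.83 to 1789 CPM in FFPE wells (median 76.7) and 3.70 to 343 in frozen wells (median 10.7), and the 6 mural markers to 0 to 211 and 0 to 105, with Rgs5 and Acta2 at 0 in frozen wells. The fibroblast markers (8 of 9 measured) summed to 0 to 95.1 CPM in FFPE wells (median 30.6) and 10.1 to 99.9 in frozen wells (median 53.6), with Lum and Igf2 at 0 in both and Dcn at 0 in frozen wells. Their part in these values was not tested.

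Other integrin chains had smaller fitted differences. Itgav held 107 ± 56.0 CPM in FFPE and 82.9 ± 7.08 in frozen wells (SD, n = 9 and n = 3; log2 difference 0.05, edgeR adjusted p = 0.988), and Itgb1 held 60.3 ± 34.1 and 52.1 ± 15.9 (-0.03, edgeR adjusted p = 0.995). Itgb8, the glial partner of Itgav, held 66.0 ± 68.7 and 45.6 ± 6.94 (0.09, edgeR adjusted p = 0.988). Itgb5 held 107 ± 88.2 CPM in oil, 128 ± 68.9 in hot xylene, 13.8 ± 14.9 in unheated xylene and 4.05 ± 3.93 in frozen wells (SD, n = 3 each). Its difference missed the threshold in edgeR (log2 difference 3.32, adjusted p = 0.155) and passed it in DESeq2 (adjusted p = 0.0170; 0.0170 to 0.511 over its alternatives). In SCRB-seq, where it did not pass the filter, it was called higher in FFPE in wells of 100 nuclei alone (log2 difference 3.71, SE 0.63, edgeR adjusted p = 4.59e-06). The SCRB-seq fit of all wells called 58.0% of 1478 genes. Plate nuclei held Itgb5 at 65.6 CPM in FFPE and 70.4 in frozen nuclei by summed counts, with a larger FFPE share after thinning (below). Of the partner lists, 0 of 17 tested matrix genes and 0 of 15 adhesion genes were called in edgeR, with 2 and 3 at an unadjusted p under 0.05, beside 372 called and 1346 at that unadjusted p of all 9092 genes.

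Among the 3 paraffin removal methods SMART-Seq2 called 0 of 20 tested members and 0 of 8372 genes in edgeR, a background of 0%. At an unadjusted p under 0.05, 1 member among 314 genes in all passed between oil and hot xylene, 1 among 199 between hot and unheated xylene and 2 among 379 between oil and unheated xylene, and DESeq2 called 0 members. Collagens summed to 393 ± 84.6, 454 ± 66.3 and 427 ± 164 CPM in the 3 methods and 645 ± 229 in frozen wells, laminins to 61.7 ± 65.2, 97.4 ± 69.1, 128 ± 88.1 and 165 ± 44.4, and integrins to 416 ± 120, 488 ± 133, 587 ± 169 and 455 ± 77.0 (SD, n = 3 each). All families overlapped between groups.

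In plate nuclei thinned to the same total count, collagen and laminin RNA was found in a smaller share of FFPE than of frozen nuclei, as was the RNA of most other genes. Over all genes the median log2 ratio of thinned shares was -1.005, and 51.4% of 11228 genes were at least 2-fold lower in FFPE, so these shares are not particular to matrix genes. FFPE nuclei had a median of 47887 counts and frozen nuclei 255329, so each nucleus was thinned to 10000 counts, which left out 8 FFPE and 10 frozen nuclei. A collagen count was then present in 52.6% of 135 FFPE nuclei (95% exact binomial interval 43.8 to 61.2) and 88.2% of 127 frozen nuclei (81.3 to 93.2). For laminins the shares were 20.7% (14.2 to 28.6) and 45.7% (36.8 to 54.7), and for integrins 66.7% (58.0 to 74.5) and 70.1% (61.3 to 77.9). By CPM of summed counts the collagens stood at 974 in FFPE and 947 in frozen nuclei, the laminins at 82.4 and 160 and the integrins at 622 and 657, and 1 nucleus held 33.2% of the FFPE collagen counts. Each group is 1 sample, the annotation gives the left hemisphere for FFPE and the right for frozen nuclei, and intervals cover counting error only, so no test was made. Before thinning the shares were 72.7% and 96.4% for collagens, 36.4% and 78.8% for laminins, and 76.9% and 85.4% for integrins. Cell type markers moved too: cerebellar granule neuron markers were in 63.0% of thinned FFPE and 2.36% of thinned frozen nuclei, and choroid plexus markers in 48.9% and 21.3%. Endothelial markers were in 31.1% and 40.9%, mural markers in 13.3% and 17.3% and fibroblast markers in 10.4% and 20.5%. Astrocyte markers were in 49.6% and 76.4%, inhibitory neuron markers in 23.0% and 48.8% and oligodendrocyte precursor markers in 11.9% and 28.3%. Oligodendrocyte markers went the other way, with 85.9% and 78.0%. Their part in the shares of matrix genes was not tested.

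Of the 51 members with a count in at least 5 thinned nuclei of at least 1 group, 29 were at least 2-fold lower in FFPE nuclei by share, against 51.4% of 11228 genes, and 8 at least 2-fold higher, against 4.76%. The median log2 ratio of shares was -1.17 over the members. The 8 higher were Col4a5, Col4a6, Col9a2, Itga5, Itgam, Itgb4, Itgb3bp and Itgbl1. Itgbl1 was in 16 of the 135 FFPE nuclei, and the other 7 were in 5 to 8 each. Itga5, lower in FFPE in the SMART-Seq2 wells, was in 5.93% of thinned FFPE nuclei (2.59 to 11.3) and 1.57% of frozen ones (0.191 to 5.57), but at all counts in 11 FFPE (7.69%) and 21 frozen nuclei (15.3%), so its order depends on the thinning. Itga8 was in 5.93% and 6.30%, and Col26a1 in 0.741% (0.0188 to 4.06) and 7.09% (3.29 to 13.0). Col26a1 was therefore lower in FFPE by share in the plate nuclei as well. By summed counts it was not, because 1 FFPE nucleus held 4127 of its 4245 counts, while 41 frozen nuclei shared 418. At all counts, 51 of 77 members were 2-fold lower, against 68.9% of genes, and 0 higher, against 1.81%.

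**Figure D3:**
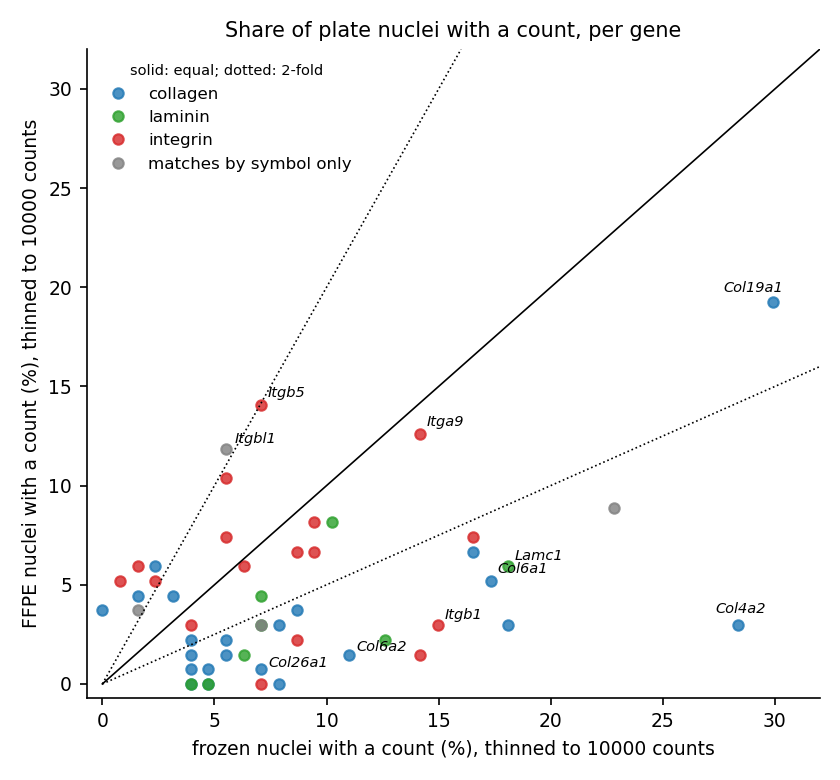
Share of plate nuclei with a count of each member after thinning to 10000 counts per nucleus, frozen nuclei on the horizontal and FFPE nuclei on the vertical axis (percent), coloured by family; the solid line marks equal shares and the dotted lines a 2-fold difference. Col4a2 lies farthest below the line, at 28.3% of frozen and 2.96% of FFPE nuclei.

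The type IV chains of basement membranes differed among themselves. Col4a2 was in 28.3% of thinned frozen nuclei (20.7 to 37.0) and 2.96% of thinned FFPE nuclei (0.813 to 7.41), and at all counts in 80 of 137 frozen and 11 of 143 FFPE nuclei. Col4a1 was in 8.66% and 3.70% after thinning, and in 30 and 14 nuclei at all counts. Col4a5 was in 1.57% of thinned frozen and 4.44% of thinned FFPE nuclei, and Col4a6 in 2.36% and 5.93%, which are 2 to 8 nuclei each. At all counts both had nearly the same share, 7.30% and 7.69% for Col4a5 and 15.3% and 14.7% for Col4a6. Col4a3 and Col4a4 were too sparse to compare after thinning, and at all counts were in 6 and 15 frozen and 4 and 4 FFPE nuclei. Of the 30 frozen nuclei with Col4a1, 25 also held Col4a2 (83.3%, beside 58.4% of all frozen nuclei), which is 31.2% of the 80 with Col4a2. In FFPE nuclei 5 of 14 did. The 2 genes share the promoter stretch printed above, and their annotated ends overlap on opposite strands, so reads there cannot be told apart without strand. Depth varies between nuclei and raises such shares for any pair. Col6a1 and Col6a2, the beaded filament chains, were both found in 28 frozen nuclei, of 49 and 43 with each, and in 3 FFPE nuclei, of 13 and 8. Those 28 are 57.1% of the frozen nuclei with Col6a1, while 31.4% of all frozen nuclei held Col6a2. Of the frozen nuclei with Itga6, 63.2% also held Itgb1, beside 35.0% of all frozen nuclei. Joint finding was thus not particular to the head-to-head pair.

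Among laminins, Lamc1 was in 18.1% of thinned frozen and 5.93% of thinned FFPE nuclei, Lamb1 in 6.30% and 1.48% and Lama4 in 7.09% and 4.44%. Lamb1 and Lamc1, which assemble into the same trimers, were both in 18 frozen nuclei and 2 FFPE nuclei. Among integrins, Itgav was in 16.5% and 7.41%, Itgb1 in 15.0% and 2.96% and Itga6 (a laminin receptor chain) in 8.66% and 2.22%, always with the frozen share first. Itgb8 was in 8.66% and 6.67%, and Itgb5 in 7.09% of frozen and 14.1% of FFPE nuclei. Itgam, the alpha chain of microglia and macrophages, was in 1 thinned frozen nucleus (0.787%) and 7 thinned FFPE nuclei (5.19%), but at all counts in 24 frozen (17.5%) and 13 FFPE nuclei (9.09%). Microglial markers were in 42.5% of thinned frozen and 17.0% of thinned FFPE nuclei. Col19a1 was the most widely found member in FFPE nuclei, in 52 nuclei (36.4%; 19.3% after thinning), followed by Itgbl1 (36), Itga9 (32), Itgb5 (29) and Col4a3bp (29). In frozen nuclei the order was Col4a2 (80), Col19a1 (75), Lamc1 (73), Col4a3bp (73) and Itgav (71).

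Summed counts gave less even values, since single nuclei could hold nearly all reads of a gene. The largest FFPE excess by CPM of summed counts was that of Itgb3bp (a centromere protein that matches by symbol only), 199-fold, with 12738 of its 13030 counts in 1 nucleus, and it was 5.66-fold without that nucleus. For Col4a3 it was 140-fold, with 716 of 730 counts in 1 nucleus, and 3.36-fold without it. Itgb6 went from 60.6-fold to 0.459-fold, and Col4a5 from 48.3-fold to 16-fold, while all counts of Col9a1 (51.9-fold) came from 1 nucleus. In the other direction Col2a1, the fibrillar collagen of cartilage and meninges, had 0 counts in FFPE and 3856 in 18 frozen nuclei. Of these, 1708 were in 1 nucleus. Its CPM was 478-fold lower with FFPE set to 3 counts for the whole group, a value that counts reads and is no bound on RNA. After thinning it was in 0 FFPE and 4 frozen nuclei, too few to compare. Col7a1 had 0 and 258 counts (17 frozen nuclei, 108 counts in 1 of them, 31.9-fold lower by the same floor). Itga2b, the platelet fibrinogen receptor chain, had 42 counts in 1 FFPE nucleus and 4161 in 22 frozen nuclei (1332 in 1 of them, 36.8-fold lower). Col1a1 had 8 counts in 1 nucleus and 388 in 16 (182 in 1 of them, 18.0-fold lower). Lama5 was 10.9-fold lower, with 858 of its 1590 frozen counts in 1 nucleus. By this measure 25 of 77 members with at least 20 counts were 2-fold lower in FFPE, against 34.1% of 17057 genes, and 30 were higher, against 32.9%. Without the 9 FFPE nuclei that are not in the batch 2 table, 37 of 74 were lower, against 45.6% of 15833 genes, and 18 higher, against 24.2%, so both counts moved with those of all genes. Those 9 held 102136 to 4973791 counts, beside at most 431562 in the other 134.

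Batches 1 and 2 of the FFPE plate nuclei shared their widest members. A further labelled batch could not be separated out. In batch 1 (98 nuclei) Col19a1 was in 39 nuclei and Itgbl1 in 38, and in batch 2 (134 nuclei, the same as in the FFPE group above) they were in 43 and 29, at a median of 180584 counts per nucleus in batch 1 and 42747 in batch 2. By counts batch 1 was led by Col19a1 (2650), Col6a1 (1762, in 6 nuclei), Itgav (1467), Col4a3bp (1369) and Col23a1 (1265). Batch 2 was led by Col19a1 (2266), Col25a1 (2059), Col4a1 (1598, in 10 nuclei), Itgb5 (930) and Col4a2 (853, in 6 nuclei). Col25a1 is a transmembrane collagen of neurons, and Col23a1 is of the same group. The collagen sum was 801 CPM in batch 1 and 886 in batch 2, laminins 96.4 and 68.6, and integrins 328 and 505, set side by side with 1 sample each.

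Droplet nuclei were the shallowest, with a median of 325 unique molecular identifiers (UMIs) and a range of 235 to 998. Of 83 listed members 30 had under 10 UMIs and 1 had 0, and 2169 of 7031 nuclei (30.8%) held any member. The authors' annotation gives 12 classes, which were clustered on these genes among others, so class differences are descriptions of 1 library with no test. All nuclei considered, the members with the most UMIs were Col19a1 (265), Col4a3bp (206), Itgav (185), Itgb1 (135), Itgb8 (135), Col25a1 (122), Itgb5 (109) and Lamc1 (95).

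Collagen RNA was highest in the class annotated as Fibroblast, which holds 47 nuclei with a median of 396 UMIs. Its markers bear the name: 8 of 9 fibroblast markers were present, with 77 UMIs (3886 CPM), and Lum was at 0. Astrocyte markers summed to 1565 CPM in the same nuclei and oligodendrocyte markers to 1161, beside 4438 and 11291 in their own classes. Collagens summed to 2473 CPM in the Fibroblast class (95% exact Poisson interval 1830 to 3269), beside 437 (412 to 464) in all other nuclei, where the highest class was ExNeuron4 with 671 (582 to 770) and the lowest ExNeuron3 with 303 (251 to 363). After thinning to 300 UMIs, 60.5% of Fibroblast nuclei and 12.1% of the others held a collagen UMI (61.7% and 14.2% before). Laminins summed to 757 CPM (424 to 1249), beside 353 (216 to 546) in Endothelial, 248 (149 to 388) in OPC (oligodendrocyte precursor) and 55.2 to 132 in the other classes. Integrins were flatter, with 858 (500 to 1374) in Fibroblast, 760 (550 to 1023) in Endothelial, 614 (364 to 971) in Microglia, 538 (448 to 641) in Astrocyte and 301 to 390 in the 6 ExNeuron classes. The Fibroblast and Endothelial intervals of integrins overlapped.

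**Figure D4:**
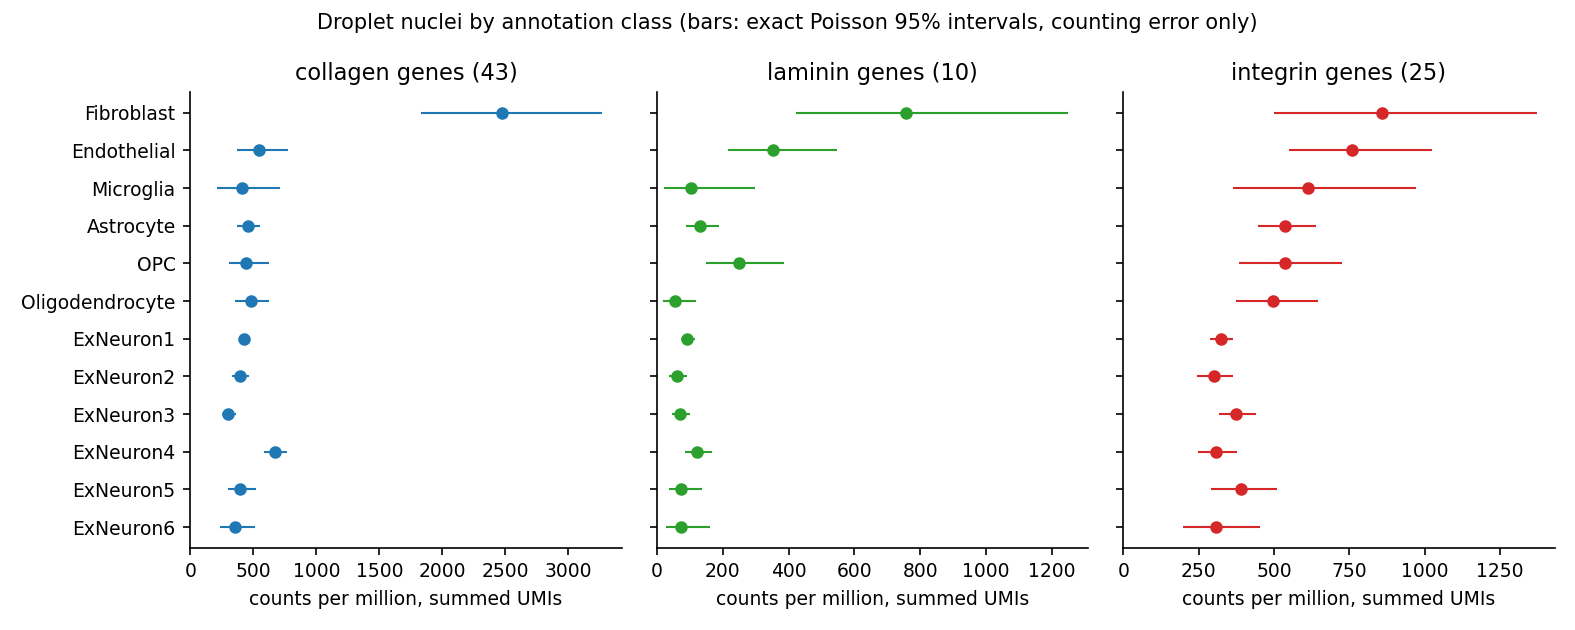
CPM of the summed collagen, laminin and integrin genes in each of the 12 annotation classes of droplet nuclei; points are the sums over 1 library and bars exact Poisson 95% intervals that cover counting error only. The Fibroblast class stands apart for collagens at 2473, while its integrin interval overlaps that of the Endothelial class.

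Within the Fibroblast class the type I chain Col1a2 led, with 10 UMIs in 8 of 47 nuclei, or 505 CPM (242 to 928), beside 12.8 (8.79 to 17.9) in all other nuclei, a ratio of 39.5. Itga1, the alpha chain of a collagen receptor, had 6 UMIs (303 CPM, 23.7 times the rest), Col23a1 5 (252 CPM, 34.3 times), Col25a1 5 (252 CPM, 5.58 times) and Lama1 4 (202 CPM, 43.5 times). Col1a1, Col4a5, Col6a2, Col8a1, Itgb1, Itgb8 and Itgbl1 had 3 UMIs each, or 151 CPM (31.2 to 442). Col3a1 had 1 UMI, Col4a2 1 and Col4a1 0. Of the 12 members with at least 3 UMIs, 10 were at least 5-fold higher than in the other nuclei, against 13.6% of 2016 genes. The class was too small for the naming rule, so its genes were named after their values were seen, and a gene reaches 3 UMIs in so few nuclei mostly where it is high. The class was defined on these genes, and the count is given as a description.

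**Figure D5:**
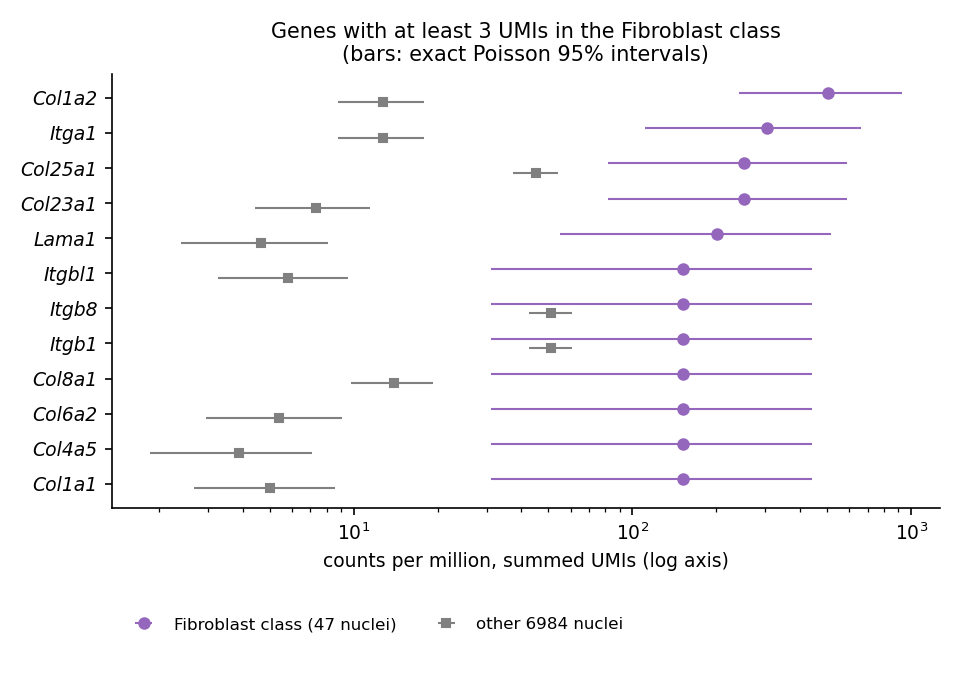
CPM of the 12 members with at least 3 UMIs in the Fibroblast class (circles, 47 nuclei) and in the other 6984 nuclei (squares), on a log axis, with exact Poisson 95% intervals. Col1a2 is highest in the class at 505 against 12.8, and the intervals of the genes with 3 UMIs run from 31.2 to 442.

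The members past 5-fold differed between the vascular and glial classes, given with no test. In the Endothelial class (174 nuclei) Itga1 had 9 UMIs (159 CPM, 72.7 to 302; 13.5 times the rest, and lower than the 303 CPM of the Fibroblast class), Lama4 7 (124 CPM, 49.7 to 255; 8.08 times), Itga6 6 (106 CPM; 5.75 times) and Lamb2 4 (70.7 CPM; 7.83 times). These 4 of 14 members passed 5-fold, against 4.23% of genes. Col4a1 had 3 Endothelial UMIs and Col4a2 had 1, beside 22 Col4a2 UMIs in ExNeuron1 (2121 nuclei). In Microglia (93 nuclei) 2 of 4 passed, against 5.14%: Itgb5 with 8 UMIs (273 CPM, 118 to 538; 6.96 times the rest) and Itgb2, the beta chain of leukocyte integrins, with 3 UMIs beside 3 in all other nuclei. Itgam, the usual alpha partner of Itgb2, is not in the droplet table.

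In Astrocytes (624 nuclei) 3 of 33 passed, against 2.60%: Col9a3 with 13 UMIs (55.5 CPM, 29.6 to 94.96), Lama3 with 10 (42.7 CPM) and Col9a2 with 7 (29.9 CPM), at 6.93, 7.79 and 5.91 times the rest. Itgb8, whose product activates TGF-beta with Itgav, led the class by UMIs, with 33 (141 CPM, 97.0 to 198; 3.28 times), followed by Itgav (20), Col4a3bp (18), Itga6 (15) and Itgb1 (15). Itgb8 also led Oligodendrocytes, with 17 UMIs (156 CPM, 91.1 to 250; 3.31 times). There Itgb4, the beta chain that pairs with Itga6, had 7 UMIs (64.4 CPM, 25.9 to 133; 17.9 times) and was the 1 of 14 members past 5-fold, against 2.32%. In OPC (215 nuclei) 2 of 14 passed, against 2.18%: Itga9, a tenascin-C receptor chain, with 12 UMIs (157 CPM, 81.0 to 274; 22.0 times), and Col11a1 with 8 (105 CPM, 45.1 to 206; 6.29 times).

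Of the neuronal classes, ExNeuron4 had the highest Col19a1 and Col25a1 levels. Col19a1 had 82 UMIs in 68 of 716 ExNeuron4 nuclei (271 CPM, 216 to 337; 3.41 times the rest), and Col25a1 had 30 (99.2 CPM). In the other 5 neuronal classes Col19a1 stood at 52.5 to 91.8 CPM. It stood at 159 in Endothelial nuclei (9 UMIs, 72.7 to 302) and 137 in Microglia nuclei (4 UMIs, 37.2 to 350), with intervals that overlap this neuronal range. Col25a1 had its highest value in the Fibroblast class, 252 CPM from 5 UMIs in 4 nuclei (81.9 to 589). The UMI counts below follow the size of each class as well as the level. In ExNeuron1 the leading members were Col19a1 (76 UMIs), Itgav (67), Col4a3bp (62), Itgb1 (41) and Col6a1 (32). In ExNeuron2 they were Col4a3bp (33), Col19a1 (30), Itgav (21), Col25a1 (19) and Itgb1 (16), and in ExNeuron3 Col19a1 (30), Col4a3bp (30), Itgav (26), Itgb5 (25) and Col27a1 (17). ExNeuron5 was led by Col4a3bp (11) and ExNeuron6 by Itgav (10). Past 5-fold were 1 of 29 members in ExNeuron2 (Col1a1, 7 UMIs, against 0.374% of genes), 2 of 27 in ExNeuron3 (Col17a1 and Col9a1, 3 UMIs each beside 3 in all other nuclei, against 0.333%) and 0 in the other 4, where 0.674% (ExNeuron1), 0.889% (ExNeuron4), 0.564% (ExNeuron5) and 0.837% (ExNeuron6) of genes passed. Of the members called in the bulk wells, Col6a3 had 3 UMIs in droplets, 2 of them in the Fibroblast class, Col14a1 had 11, Itga5 15, Itga8 57 and Col26a1 24, of which 10 were in ExNeuron1 and 7 in ExNeuron4.

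Leaving out the 5% of nuclei with most UMIs in each class, the step taken against doublets, changed some of these lists. Col1a1 fell below 5-fold in ExNeuron2 although its level hardly moved (22.1 CPM in place of 20.2), which left 0 of 26 members past it there. Col8a1 and Itgbl1 no longer had 3 UMIs in Fibroblast (114 CPM each in place of 151), where 8 of the remaining 10 members were past 5-fold, against 14.4% of 1766 genes. Col4a1 passed in Endothelial, Col23a1 in Astrocyte, Itga2 in ExNeuron1 and Col8a1 in ExNeuron5. The members past 5-fold in the other 6 classes were the same.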

How the data were processed

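The values used are counts per gene that the authors deposited: read or UMI counts per bulk well, plate nucleus or droplet nucleus, with treatments, nuclei numbers and cell classes from the authors' deposited annotation tables. The submitters' processing notes name the builds hg19 and mm10, and the sources used here give no aligner or counting rule. Mouse genes of the SCRB-seq table were separated from human genes by prefix. Members and gene lists were chosen with earlier results of these data known. One gene that the symbol pattern takes in is not reported here.

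Bulk wells were tested over all mouse genes with edgeR 4.0.16 (R 4.3.3, TMM scaling, filterByExpr, quasi-likelihood test, Benjamini-Hochberg adjustment, called at adjusted p under 0.05). The fits were also run on simulated counts with the changed genes drawn among the better measured ones, so that run does not cover sparse members. FFPE minus frozen is the mean of the 3 FFPE treatments minus frozen, and the methods were compared among FFPE wells. Alternatives were DESeq2 1.42.0, its size factors in edgeR, no filter, nuclei number as a covariate, wells of 10 or 100 nuclei alone and, in SMART-Seq2, each well left out. CPM is counts scaled to 1000000 mouse counts.

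Nuclei groups are 1 sample each and were not tested. Levels are CPM of summed counts with exact Poisson 95% intervals, and shares of nuclei have exact binomial (Clopper-Pearson) 95% intervals, after thinning with 1 seed to 10000 counts (plates) or 300 UMIs (droplets). Plate reads carry no known molecular identifiers, so intervals and floors cover counting error only. Plate genes were called by share at 2-fold in either direction, and droplet genes at 5-fold above the other nuclei among genes with at least 3 UMIs. Doublets were addressed by leaving out the 5% of nuclei with most UMIs per class. Members are named if called in a bulk comparison, if among the 10 (bulk) or 5 (plate tables, droplet classes of at least 50 nuclei) with most counts, if among the 5 largest plate ratios each way, or if on a fixed list of 13 chains. Coordinates and exon lengths are from GENCODE M21 (mm10), promoter windows from RefSeq (GRCm38.p6), and tables and plots were made with Python 3.11.15, numpy 2.4.6, pandas 2.3.3, scipy 1.17.1 and matplotlib 3.10.9.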

Additional observations from a re-analysis of the deposited data

Results flagged for a closer look

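In SCRB-seq groups of 8 wells with the same treatment and nuclei number, 3 of 40 groups of a tested member held 1 well far above the rest. Chance alone sets apart about 1 group in 20, so 3 of 40 is near what chance gives. Col19a1 reached 532 CPM in 1 oil well of 10 nuclei, beside 153 in the next highest well, and 3 of these 8 wells had any count. It reached 391 CPM in 1 unheated xylene well of 10 nuclei, beside 200 in the next. Col4a5 reached 566 CPM in 1 hot xylene well of 100 nuclei, beside 353 in the next. Neither gene passed the test in FFPE against frozen wells.

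The SCRB-seq table also holds counts assigned to human genes, which enter no comparison above. Human COL6A3 stood at 53.3 CPM of all counts in FFPE wells (180 counts; exact Poisson 95% interval 45.8 to 61.7) and at 12.9 in frozen wells (14 counts; 7.03 to 21.6). Scaled to 1000000 human counts it stood at 440 to 459 in the FFPE treatments and 620 in frozen wells, the other order. Human genes as a whole held 11.8% of all counts in FFPE wells and 2.08% in frozen wells. The share of these counts in the mouse Col6a3 difference was not tested.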

How the results depend on the processing

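In SCRB-seq, FFPE minus frozen, Col6a3, Col14a1 and Col26a1 kept direction and call under every alternative that tested them; Col26a1 was not tested in wells of 10 nuclei alone. Without the filter 16 of 80 members were called there (beside 4785 of 19006 genes), 12 between oil and hot xylene (3415 of 18205), 14 between hot and unheated xylene (2899) and 9 between oil and unheated xylene (2925). In wells of 100 nuclei alone Itgb5 was also called higher in FFPE than in frozen wells. The fit of all wells called 58.0% of 1478 genes. Between methods, wells of 100 nuclei alone gave 1 call (Itgav) for oil and hot xylene (256 of 1953 genes). They gave 2 (Itgav, Col14a1) for oil and unheated xylene (178), where the nuclei number as a covariate called 1 (Col14a1, beside 201 of 1080 genes). Col4a5 was called lower with DESeq2's size factors (-0.70) and DESeq2 (-0.67). In SMART-Seq2, FFPE minus frozen, the covariate called 5 members (Lama4 and Col5a1 besides the 3; 429 of 9092 genes), leaving out 1 well called 1 to 3 (162 to 469 genes), and DESeq2 called 3, with Itgb5 in place of Itga5; over all genes DESeq2 called 331 higher and 299 lower, in place of 132 and 240. No well left out gave a call between methods.

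In FFPE plate nuclei, summed CPM were 974 for collagens, 82.4 for laminins and 622 for integrins, and the mean of the nuclei's own CPM was 550 for collagens, 67.7 for laminins and 652 for integrins, and without the 9 nuclei outside batch 2 the summed CPM were 886, 68.6 and 505. In frozen nuclei summed CPM were 947, 160 and 657, and the means of own CPM 1037, 169 and 739. Shares before thinning were 72.7%, 36.4% and 76.9% in FFPE and 96.4%, 78.8% and 85.4% in frozen nuclei. Members 2-fold higher in FFPE by CPM were 16 by own CPM (27.1% of all genes) and 18 without the 9 nuclei (24.2%), in place of 30 (32.9%); by share at all counts, 51 were lower and 0 higher. In droplet nuclei outside Fibroblast the unthinned shares were 14.2%, 3.54% and 12.9%. The causes of these shifts were not tested. No paired analysis was possible because the labels give no replicate numbers shared between groups. Depth limits what can be tested: 5 of 80 members passed the filter in SCRB-seq, and 30 of 83 have under 10 UMIs in droplets.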
